A study of Mus musculus with 2 samples.

Results

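The IGF-binding proteins (Igfbp genes) were measured cell by cell in mouse inguinal lymph nodes that drained a tumour. The rule took every row of the expression table named Igfbp2, Igfbp3, Igfbp4, Igfbp5, Igfbp6 or Igfbp7. All 6 genes were found, of 25815 genes in both libraries together. Igfbp1 had no row. The WT library held sorted cells pooled from 13 nodes of wild type mice, and the other library held cells pooled from 9 nodes of ATG5 LEC-KO mice, labelled ATG5 KO. The nodes of both genotypes drained a tumour, so no group is tumour-free. The tumour model, the Cre driver and the age of the mice are not given in the sources used here. Viable endothelial cells (CD31+, CD45- and Ter119-) and immune cells (CD45+, CD31- and Ter119-) were sorted and pooled, so the ratio of endothelial to immune cells was set by the sort. With 1 pooled library per genotype there is no replicate of a mouse or node, and no test between genotypes was possible.

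IGF-binding proteins are secreted proteins that hold insulin-like growth factors 1 and 2 in the circulation and around cells, and so set how much ligand reaches the receptor Igf1r. Igfbp2 to Igfbp6 bind these ligands with high affinity. Igfbp7 binds them weakly and is known as an endothelial matrix protein. Proteases release the ligand by cutting the binding proteins, with the pregnancy-associated plasma protein Pappa acting on Igfbp4 and Igfbp5. In vessels, Igfbp3 and Igfbp7 are best known from blood endothelium, and in lymph nodes lymphatic endothelial cells (LECs) line the subcapsular sinus with a ceiling and a floor and also form the medullary sinuses.

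The 6 genes lie on 4 chromosomes of GRCm38. Igfbp3 (ENSMUSG00000020427.11, minus strand, 5 exons in the principal transcript) is at chr11:7206086-7213923. Igfbp4 (ENSMUSG00000017493.12, plus strand, 4 exons) is on the same chromosome at chr11:99041244-99054392. Igfbp2 (ENSMUSG00000039323.18, plus strand, chr1:72824503-72852474) and Igfbp5 (ENSMUSG00000026185.8, minus strand, chr1:72857932-72874884) lie tail to tail, 5457 bases apart with no annotated gene between them. Igfbp6 (ENSMUSG00000023046.6, plus strand) is at chr15:102144362-102149511. Igfbp7 (ENSMUSG00000036256.13, minus strand, 6 exons) is at chr5:77349240-77408041 and overlaps Polr2b and Gm34648 on the plus strand. The strand used in counting is not given in the sources used here, so reads of Igfbp7 and of those genes cannot be told apart with certainty. Polr2b was at 63.4 and 68.4 CPM (a gene's molecules scaled to one fixed total per class) in the LECs of the WT and the ATG5 KO library, against 3855 and 5006 CPM for Igfbp7, and Gm34648 stayed at or below 1.87 CPM in the classes examined.

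The 150 bases upstream of the RefSeq start (GRCm38.p6, gene strand) are shown for the 4 genes that were measured at more than a few molecules, because each of these has its own pattern over the cell classes. Capitals mark exact matches, on either strand, to the TATA-box word TATAAA, the GC-box word GGGCGG and the Ets-site word CCGGAA. The windows are chr11:7213924-7214073 for Igfbp3, chr11:99041094-99041243 for Igfbp4, chr1:72874866-72875015 for Igfbp5 and chr5:77408046-77408195 for Igfbp7.
Igfbp3: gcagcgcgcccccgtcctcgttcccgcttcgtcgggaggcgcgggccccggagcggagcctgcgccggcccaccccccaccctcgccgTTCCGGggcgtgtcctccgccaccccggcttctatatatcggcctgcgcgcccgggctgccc
Igfbp4: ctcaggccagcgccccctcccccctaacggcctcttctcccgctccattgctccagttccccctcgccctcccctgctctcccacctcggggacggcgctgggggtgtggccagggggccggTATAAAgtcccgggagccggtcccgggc
Igfbp5: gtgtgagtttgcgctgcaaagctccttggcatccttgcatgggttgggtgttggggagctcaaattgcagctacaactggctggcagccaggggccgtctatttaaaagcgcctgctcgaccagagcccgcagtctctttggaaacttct
Igfbp7: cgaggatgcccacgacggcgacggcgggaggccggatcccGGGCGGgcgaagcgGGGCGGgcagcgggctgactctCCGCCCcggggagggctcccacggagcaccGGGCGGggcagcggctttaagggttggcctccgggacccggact
The Igfbp4 window held TATAAA 28 bases before the start, a word found in 7.58% of 32817 promoter windows of the same length. The Igfbp7 window held GGGCGG at 4 places, 110, 96 and 44 bases before the start on the gene strand and 74 bases before it on the other; 28.6% of all windows held it at least once. The Igfbp3 window held CCGGAA on the other strand 62 bases before the start, as did 9.22% of windows on either strand. None of these words was in the Igfbp5 window, which had a GC content of 55.3% against 78.7%, 73.3% and 78% for Igfbp3, Igfbp4 and Igfbp7. The GENCODE start of Igfbp5 lies inside its window. These matches are descriptions of the letters only.

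Expression was counted as unique molecules (UMIs) at the 3′ end of transcripts, so levels are compared between cells and not between genes. The WT library had 23649554 UMIs and the ATG5 KO library 23089918. After filters, 3846 and 4130 cells remained, with a median of 3518 and 3353 UMIs, and 14 called barcodes were shared by both libraries. Levels are CPM, taken from the non-mitochondrial UMIs of all cells of a class added together, and brackets give 95% intervals that cover counting error only. Classes were named from marker genes after clustering with the Igfbp genes and related lists left out; each name means cells like that type, and the suffix is left out hereafter. There were 715 and 211 LECs in the WT and the ATG5 KO library, and 559 and 483 blood endothelial cells (BECs). Among them, 441 and 93 were ceiling LECs, 130 and 8 floor LECs, 53 and 92 medullary LECs, 88 and 57 cells of high endothelial venules (HEVs), 37 and 21 arterial, 69 and 40 capillary, 91 and 120 tip-like and 22 and 8 venous BECs. Marco, Clec4g, Cd209b and Fcna were at or below 17 CPM in the medullary class, which carried Mrc1, Itih5 and Lyve1, and Ccl21a was at 8 CPM or less over all LECs. Genotypes were compared only in classes with at least 20 cells in each library. Ceiling LECs and BECs of no sub-class were compared by numbered cluster, since some of their clusters were led by markers of other classes or came almost wholly from 1 library (BEC7, led by Cxcl9, had 2 and 58 cells). Atg5 itself was at 40.7 CPM [35.6 to 46.2] in WT LECs and at 44.4 CPM [34.6 to 56.0] in ATG5 KO LECs; a 3′ count outside a deleted exon does not check a deletion.

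Igfbp7 was the member with most UMIs, 55569 in the cells of the WT and 32830 in those of the ATG5 KO library, and 93.1% and 94.5% of them were in LECs and BECs. Igfbp4 followed with 7990 and 6916 UMIs, Igfbp3 with 6210 and 7233 and Igfbp5 with 1667 and 1587. LECs and BECs held 97.4% and 98.1% of the Igfbp3 UMIs but only 78.0% and 58.1% of those of Igfbp4, whose other main source was T cells. Igfbp2 had 1 UMI over all barcodes of the WT library and 5 over those of the ATG5 KO library, and Igfbp6 had 3 and 7. At this depth neither Igfbp2 nor Igfbp6 was detectable above a few stray molecules in any class, and they are not described further. The plot of levels by cell class gives the other 4.

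**Figure D1:**
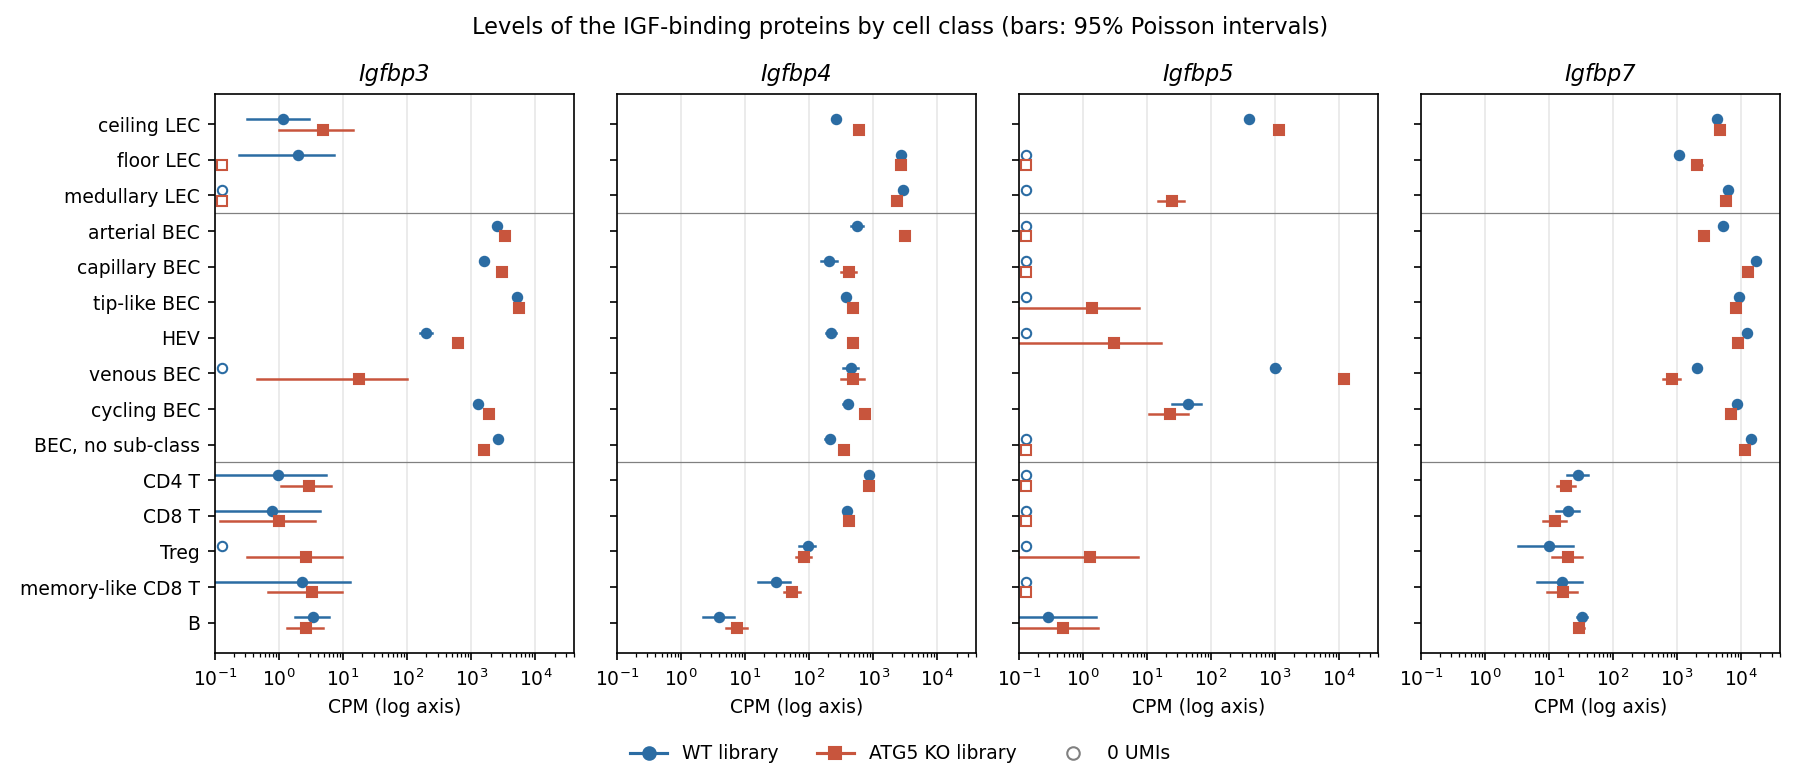
Levels of Igfbp3, Igfbp4, Igfbp5 and Igfbp7 in CPM (log axis) in each cell class, with circles for the WT and squares for the ATG5 KO library, bars for 95% Poisson intervals and open symbols for 0 UMIs. Igfbp3 is high in most BEC classes and near 0 in LECs. Igfbp4 is high in floor LECs, medullary LECs and CD4 T cells, and in arterial BECs of the ATG5 KO library. The venous and floor classes of the ATG5 KO library rest on 8 cells each.

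Igfbp3, the main carrier of IGFs in blood and here a gene of blood vessels, was at 2265 CPM in WT BECs [2208 to 2323] and at 2762 CPM in ATG5 KO BECs [2698 to 2827]. LECs held only 8 and 3 UMIs of it, or 1.39 and 1.90 CPM, which is at or below the 3.43 and 2.67 CPM seen in B cells. No fold over LECs is given, since their level cannot be told apart from background. The gene was found in 60.1% and 66.7% of BECs, so a part of the blood endothelium also had no UMI of it.

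Among the named BEC classes, Igfbp3 was highest in tip-like cells, with 5159 CPM [4969 to 5354] in the WT and 5608 CPM [5438 to 5783] in the ATG5 KO library. This class, marked by Apln and Angpt2, resembles the leading cells of vessel sprouts. Tip-like cells were 16.3% and 24.8% of BECs and held 46.2% and 57.7% of the Igfbp3 UMIs of all BECs. Of the 2 clusters of this class, BEC1, led by Mest, Abcc9, Esm1 and Angpt2, was at 8032 and 6916 CPM, and BEC4, led by Prnd, Chga and Apln, at 1590 and 1546 CPM. The difference between these clusters was far larger than that between libraries. In single cells of BEC1 the median was 77.6 and 49.9 Igfbp3 UMIs per 10000 UMIs, and 3 of 48 and 5 of 81 cells had none. Pericyte markers, Abcc9 among them, summed to 357 and 395 CPM in BEC1, with 6 and 4 of 8 at 0. In BEC4 these markers summed to 37.3 and 50.6 CPM, and their part in the levels was not tested.

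Among the named classes arterial BECs came next in both libraries, with 2490 CPM [2248 to 2750] in the WT and 3316 CPM [2958 to 3705] in the ATG5 KO library. Capillary BECs were at 1561 CPM [1414 to 1720] and 3050 CPM [2763 to 3360]. The arterial level was 1.59-fold the capillary one in the WT library (interval 1.38 to 1.84) and 1.09-fold in the ATG5 KO library (interval 0.935 to 1.26), so that order was clear of counting error only in the former. Cycling BECs were at 1293 and 1881 CPM. Of the clusters of no sub-class, BEC10 was at 3834 and 3146 CPM and BEC11 at 2531 and 2651 CPM. Both were above the tip-like cluster BEC4 in each library, and BEC10 was above arterial cells in the WT library.

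HEV cells, which form the venules where lymphocytes leave the blood, were low in Igfbp3, with 199 CPM [161 to 243] in the WT and 624 CPM [542 to 715] in the ATG5 KO library. The tip-like level was 25.9-fold that of HEV cells in the WT library (interval 21.2 to 32.1) and 8.98-fold in the ATG5 KO library (interval 7.81 to 10.4). In HEV cells the signal came from a few cells: 71 of 88 and 43 of 57 cells had no UMI, and the richest 10% of cells held 91.8% and 91.3% of the UMIs. Venous BECs had 0 and 1 UMI in 22 and 8 cells. Igfbp3 was therefore at its lowest on the venous side of the vessels, in the HEV and venous classes, in each library.

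Igfbp7 was the broadest member, present in 96.4% and 97.5% of BECs and 94.5% and 98.1% of LECs, against 5.05% and 3.67% of B cells, which should lack it and had fewer UMIs per cell (median 2710 and 2708.5, against 4549 and 4588 in BECs). After thinning each cell to 3000 UMIs, which left out 158 and 115 BECs, 45 and 11 LECs and 852 and 992 B cells with fewer, the gene was found in 96.3% and 97.0% of BECs, in 92.1% and 98.5% of the lymphatic cells, and in 4.65% and 4.80% of the B lineage. B cells were at 33.4 and 29.9 CPM of Igfbp7, so values of that size in T cells (10.1 to 28.2 CPM) are background. BECs were at 11076 CPM [10950 to 11203] in the WT and 8998 CPM [8882 to 9114] in the ATG5 KO library, and LECs at 3855 CPM [3804 to 3906] and 5006 CPM [4896 to 5117]. The LEC level was 0.348-fold the BEC level in the WT library and 0.556-fold in the ATG5 KO library, so BECs were the higher in both.

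Among BECs, Igfbp7 was highest in capillary cells, at 16781 and 12810 CPM, and in BEC11, a cluster of no sub-class led by Enpp2, Dsg2 and Atp1b1, at 16948 and 16908 CPM. BEC10, also of no sub-class, followed with 12730 and 11717 CPM, then HEV cells with 12124 and 8800 CPM, BEC6 with 10646 and 8549 CPM, tip-like cells with 9141 and 8307 CPM and cycling BECs with 8563 and 6847 CPM. Arterial cells were lower, at 5294 CPM [4939 to 5668] and 2615 CPM [2298 to 2962], and venous cells lowest, at 2042 and 827 CPM. The arterial level was 0.316-fold the capillary level in the WT library (interval 0.293 to 0.340) and 0.204-fold in the ATG5 KO library (interval 0.178 to 0.233). Single arterial cells were uneven, with 10 of 37 and 7 of 21 cells at 0 and the highest at 248 and 146 UMIs per 10000, whereas every cell of BEC11 had the gene. Igfbp3 and Igfbp7 thus had opposite orders in arterial and HEV cells: arteries were higher in Igfbp3 and HEVs higher in Igfbp7.

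Among the named LEC classes, Igfbp7 was highest in medullary cells, at 6146 CPM [5915 to 6383] and 5726 CPM [5559 to 5897]. Ceiling LECs were at 4249 and 4741 CPM, but their cluster LEC12 was at 6049 CPM [5821 to 6283] and 7358 CPM [6937 to 7799], near the medullary level in the WT and above it in the ATG5 KO library. Floor LECs, which face the node cortex, were the lowest named class, at 1079 CPM [1016 to 1144] in the WT and 2041 CPM [1712 to 2416] in the 8 cells of the ATG5 KO library. The unnamed cluster LEC9, of 21 and 4 cells, was at 1252 CPM [1080 to 1444] and 322 CPM [161 to 575], below floor cells in the latter. The floor level was 0.254-fold the ceiling level in the WT library (interval 0.239 to 0.270) and 0.431-fold in the ATG5 KO library (interval 0.360 to 0.512).

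Igfbp4, an inhibitor of IGF action that is cut by Pappa, had the reverse order on the 2 walls of the subcapsular sinus. Floor LECs were at 2717 CPM [2616 to 2820] in the WT and 2692 CPM [2311 to 3117] in the ATG5 KO library, and ceiling LECs at 265 CPM [248.5 to 283] and 599 CPM [539 to 663]. The floor level was 10.2-fold the ceiling level in the WT library (interval 9.5 to 11) and 4.5-fold in the ATG5 KO library (interval 3.74 to 5.39). Igfbp4 was found in 129 of 130 WT floor cells and in all 8 of the ATG5 KO library. Pericyte markers, which bear on the purity of this class, summed to 417 and 635 CPM there with 4 and 6 of 8 at 0, against 4.30 and 9.89 CPM in ceiling LECs; their part in the level was not tested.

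Medullary LECs had a level of Igfbp4 near that of floor LECs, with 2903 CPM [2745 to 3068] and 2373 CPM [2266 to 2484]. The floor level was 0.936-fold the medullary level in the WT library (interval 0.875 to 1.0) and 1.13-fold in the ATG5 KO library (interval 0.967 to 1.32), so these neighbours did not differ beyond counting error. In single medullary cells the median was 28.3 and 21.7 UMIs per 10000 UMIs, and 0 of 53 and 3 of 92 cells had none. LEC9 had only 6.62 and 29.2 CPM. LECs as a whole were at 941 and 1612 CPM, or 3.10-fold and 2.80-fold the level of BECs.

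In blood vessels Igfbp4 was at 304 CPM [283 to 326] in the WT and 575 CPM [546 to 605] in the ATG5 KO library. In the WT library arterial cells were highest among the named classes at 565 CPM [453 to 696], with venous cells at 445, cycling cells at 404, tip-like cells at 371, HEV cells at 221 and capillary cells at 206 CPM; the arterial and venous intervals overlap. In the ATG5 KO library arterial cells stood apart with 3125 CPM [2778 to 3503], followed by cycling cells at 745 CPM, while tip-like, venous, HEV and capillary cells lay between 423 and 493 CPM. Igfbp4 was about as frequent in BECs with Igfbp3 as in those without: after thinning each cell to 3000 UMIs, it was found in 37.0% of WT BECs with Igfbp3 and 36.1% of those without, and in 55.0% and 54.1% in the ATG5 KO library.

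Igfbp5, a binding protein that attaches to the extracellular matrix, was not a class-wide signal but that of a few cells. In LECs, 27 of 715 cells of the WT library (3.78%, 95% Clopper-Pearson interval 2.5 to 5.45%) and 13 of 211 of the ATG5 KO library (6.16%, interval 3.32 to 10.3%) had any UMI, and these held 1394 and 714 UMIs. The 17 and 8 cells with at least 10 UMIs held 97.6% and 98.0% of them, and the richest cell had 352 and 194 UMIs. B cells had the gene in 1 cell of each library. The clusters grouped as ceiling LECs held 99.7% and 97.3% of the LEC UMIs, whereas floor LECs had none in either library, and medullary LECs had none in the WT library and 19 UMIs in a single cell of the ATG5 KO library.

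Most of these UMIs were in 1 cluster, LEC10. It had 11 of the 27 WT LECs with any UMI and 9 of the 13 in the ATG5 KO library. In the WT library 9 more such cells were in LEC0. LEC10, which comprised 4.34% and 9.95% of LECs, held 82.8% and 96.4% of the Igfbp5 UMIs in LECs, 1154 UMIs in 11 of 31 cells and 688 UMIs in 9 of 21 cells. Igfbp5 was kept out of the clustering, and LEC10 was also marked by Lpl, Ccnd2, Slco2a1, Ntn1 and Adamtsl1. It was grouped with ceiling cells, but it scored higher for the general LEC markers than for those of the ceiling and had none of the latter among its 10 leading genes, so its place in the sinus is uncertain. Its level was 4334 CPM [4087 to 4591] in the WT and 4103 CPM [3802 to 4422] in the ATG5 KO library, a difference within counting error. LECs rich in Igfbp5 were poor in Igfbp7: the cells with at least 10 Igfbp5 UMIs were at 677 CPM of Igfbp7 in the WT and 1083 CPM in the ATG5 KO library, and those with none at 3979 and 5206 CPM. Fibroblast markers summed to 7.12 and 15.3 CPM in the Igfbp5-rich LECs, with 9 of 10 at 0 in each library, against 63.4 and 144 CPM in LECs without Igfbp5. LEC markers summed to 8119 and 17390 CPM there, against 7128 and 11487 CPM. BEC markers were also higher there, at 1731 and 3097 CPM against 1185 and 1164 CPM, and their part was not tested.

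In BECs, 5 and 9 cells had Igfbp5, with 155 and 662 UMIs. The venous cluster BEC5 held 89.7% and 98.3% of them, in 4 of its 22 WT and 5 of its 8 ATG5 KO cells, and the richest cell had 438 UMIs. BEC5 carried the vein markers Vwf (2151 and 2050 CPM), Selp, Nr2f2 and Ackr1, and was led by Cytl1, Mgp, Ctsh, Mmp2 and Bgn beside Igfbp5. The Igfbp5-rich BECs had 848 and 27.6 CPM of Igfbp7, against 11202 and 9215 CPM in BECs without Igfbp5. Fibroblast markers summed to 113 and 1075 CPM in those 3 and 4 cells, with 9 of 10 at 0, against 15.9 and 4.44 CPM in BECs without Igfbp5. LEC markers summed to 113 and 1846 CPM there, against 504 and 610 CPM. BEC markers summed to 6841 and 12290 CPM, against 11390 and 12234 CPM. The part of these markers was not tested. The plot of single cells with Igfbp5 shows how few carry it.

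**Figure D2:**
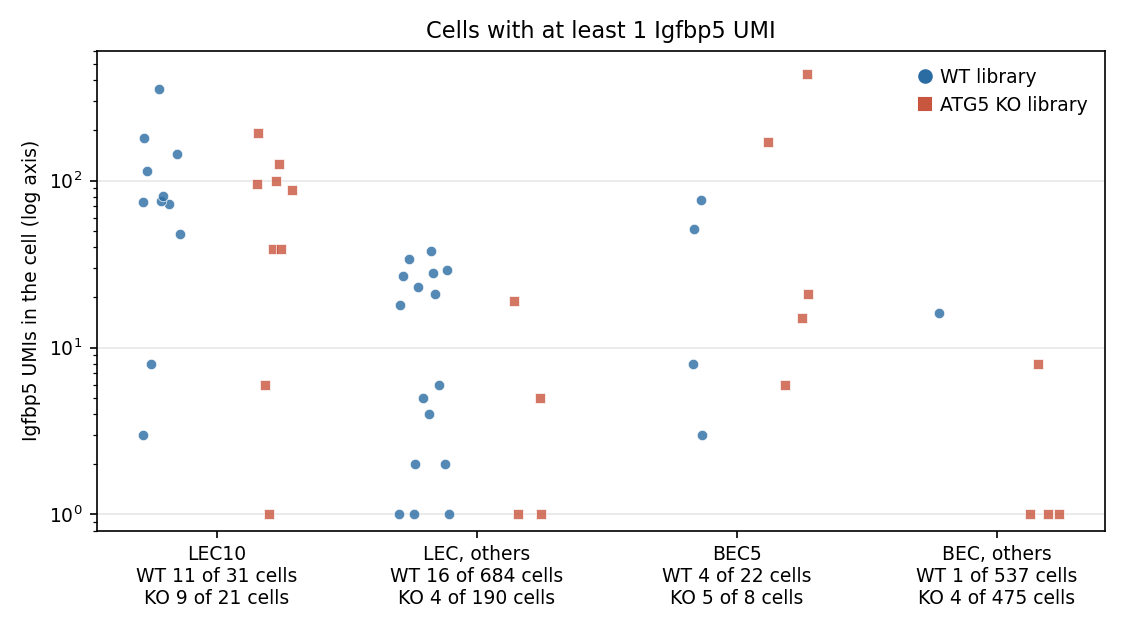
Each point is a cell with at least 1 Igfbp5 UMI, plotted by its number of Igfbp5 UMIs (log axis) in cluster LEC10, the other LECs, cluster BEC5 and the other BECs, with circles for the WT and squares for the ATG5 KO library. All plotted cells above 38 UMIs sit in LEC10 or BEC5, but other LECs reach 38 and other BECs 16 UMIs. Endothelial clusters that also carried markers of other cell types are not plotted. In them 6 of 99 WT and 3 of 38 ATG5 KO cells had Igfbp5, with at most 92 and 194 UMIs in a cell. The richest cell, with 438 UMIs, is in BEC5 of the ATG5 KO library.

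The genotypes were compared by the ratio of ATG5 KO to WT CPM, and a gene was called where it had at least 50 UMIs over both libraries and differed by at least 1.5-fold. In LECs, 19.3% of the 9978 genes with enough UMIs passed in either direction, 8.66% higher and 10.6% lower in the ATG5 KO library. Of the 3 members with enough UMIs in LECs, Igfbp4 and Igfbp5 were higher and Igfbp7 was within 1.5-fold. In BECs, 11.1% of 9227 genes passed, 4.12% higher and 7% lower. Of the 4 members with enough UMIs in BECs, Igfbp4 and Igfbp5 were higher, and Igfbp3 and Igfbp7 were within 1.5-fold. The median log2 ratio of all genes with enough UMIs was 0.035 in LECs and -0.0091 in BECs. The plot of ratios gives the classes for the 3 members that were not restricted to a few cells.

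**Figure D3:**
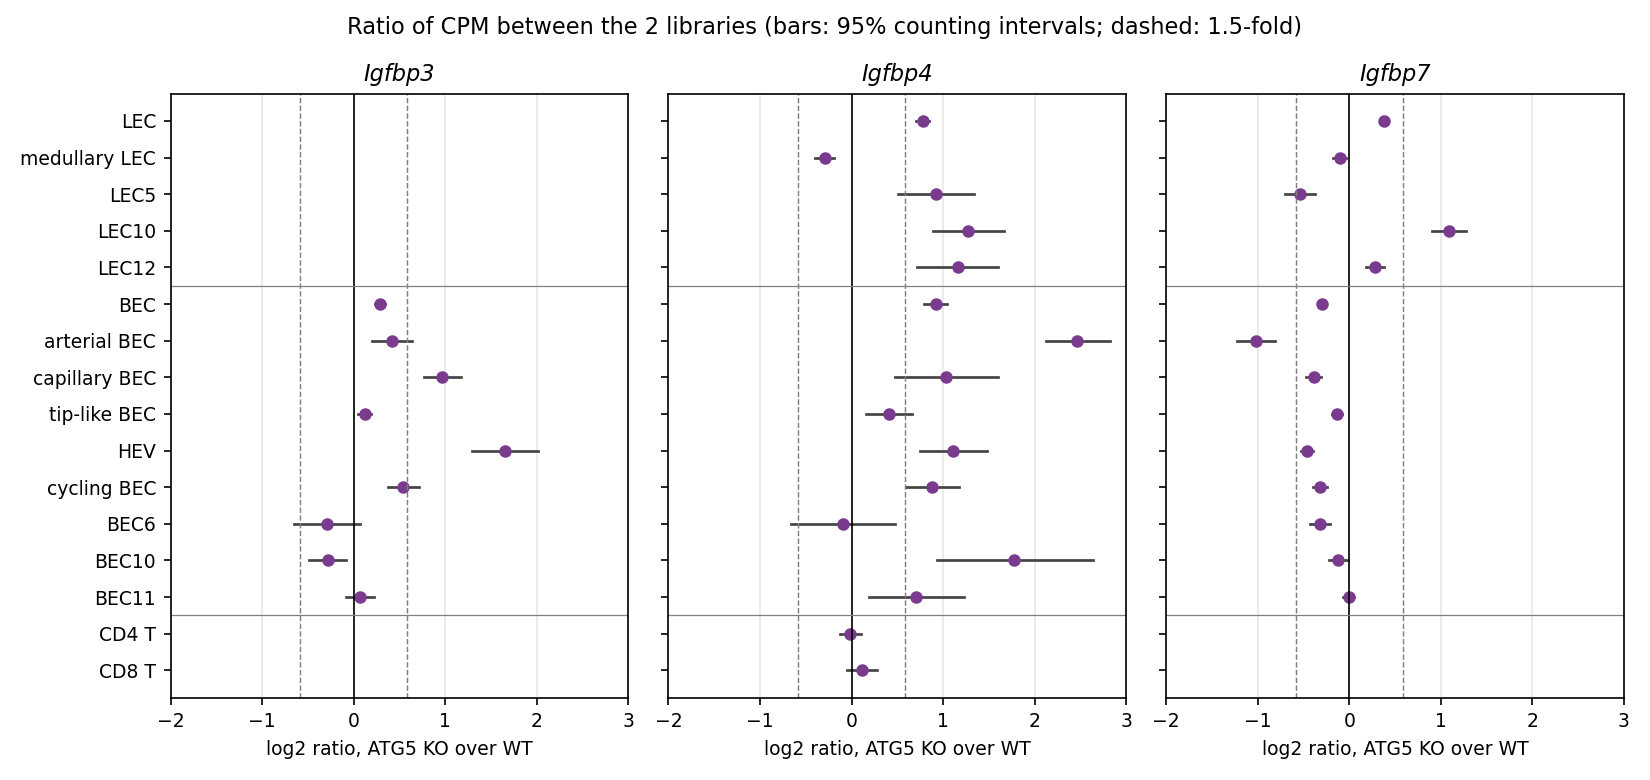
Log2 ratio of CPM in the ATG5 KO over the WT library for Igfbp3, Igfbp4 and Igfbp7 in LECs, BECs, T cells and their classes or numbered clusters with at least 20 cells in each library; bars are 95% counting intervals and dashed lines mark 1.5-fold. Igfbp4 lies right of 0 in BECs and in 7 of the 8 BEC groups listed under them, and the interval of the remaining one, BEC6, meets 0.

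Igfbp4 in BECs was 1.89-fold higher in the ATG5 KO library (interval 1.73 to 2.06). Arterial cells differed most, 565 against 3125 CPM, a ratio of 5.53 (interval 4.35 to 7.10). It was 3.58 among cells assigned female (8 and 3 cells) and 11.1 with at most 10% mitochondrial UMIs. In single arterial cells the median was 0 UMIs per 10000 in the WT and 18.1 in the ATG5 KO library, and 19 of 37 and 5 of 21 cells had none. Pericyte markers summed to 77.0 and 255 CPM in these cells, with 6 and 5 of 8 at 0, and their part was not tested. The ratio was 2.17 in HEV cells (interval 1.69 to 2.79), 2.05 in capillary cells (interval 1.39 to 3.03), 1.85 in cycling cells (interval 1.51 to 2.26) and 1.33 in tip-like cells (interval 1.1 to 1.59). The capillary ratio was under 1.5-fold at a finer clustering resolution (log2 ratio 0.58) and after thinning to 3000 UMIs (0.44), and the cycling ratio was 3.95 in female cells (4 and 3 cells). BEC1 made up 48 of 91 tip-like cells in the WT and 81 of 120 in the ATG5 KO library, and within the tip-like clusters the ratio was 1.06 in BEC1 (interval 0.879 to 1.28) and 1.18 in BEC4 (interval 0.668 to 2.06), neither clear of counting error. Of the clusters of no sub-class, BEC10 was at 103 and 351 CPM (ratio 3.42, interval 1.91 to 6.22), BEC11 at 184 and 300 CPM (ratio 1.63, interval 1.14 to 2.34) and BEC6 at 392 and 368 CPM (ratio 0.939, interval 0.632 to 1.39). The sexes differed in BEC6, with 532 and 126 CPM in male cells (18 in each library) and 116 and 565 CPM in female cells (9 and 19). Over 15 alternative settings the BEC ratio stayed between 1.81 and 2.15.

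Igfbp4 in LECs as a whole was 1.71-fold higher in the ATG5 KO library (interval 1.63 to 1.80), but the 2 libraries held different LECs. Medullary cells were 7.41% of WT and 43.6% of ATG5 KO LECs and held 23.3% and 72.4% of the Igfbp4 UMIs, while floor cells were 18.2% and 3.79% of LECs with 51.0% and 7.0% of the UMIs. With ceiling and medullary cells given equal weight the ratio was 1.36. Within medullary LECs Igfbp4 was lower in the ATG5 KO library, 2903 against 2373 CPM, a ratio of 0.817 (interval 0.761 to 0.879). Within the ceiling clusters that could be compared it was higher: 345 and 655 CPM in LEC5 (ratio 1.90, interval 1.42 to 2.53), 349 and 847 CPM in LEC10 (ratio 2.42, interval 1.85 to 3.18) and 232 and 517 CPM in LEC12 (ratio 2.23, interval 1.65 to 3.02). Ceiling clusters LEC0 (91 and 0 cells), LEC4 (105 and 17) and LEC6 (85 and 7) had too few ATG5 KO cells to compare. The equal-weight ratio includes them, so its ceiling part also mixed different cells. The LEC5 ratio was 1.24 in male and 4.40 in female cells, and mitochondrial UMIs in that cluster were 10.5% and 16.5%. In LEC12 the direction turned among cells assigned female (only 9 and 5 cells), with a log2 ratio of -1.33.

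Igfbp3 differed less between the libraries. Its ratio was 1.22 in BECs (interval 1.18 to 1.26; 2.17 in female cells) and 1.09 in tip-like cells (interval 1.04 to 1.14; 3.97 in female cells). Neither tip-like cluster was higher in the ATG5 KO library: the ratio was 0.861 in BEC1 (interval 0.818 to 0.906), the Igfbp3-rich cluster with the larger share there, and 0.972 in BEC4 (interval 0.830 to 1.14). In arterial cells it was 1.33 (interval 1.14 to 1.55), but 0.448 with at most 10% mitochondrial UMIs and 2.66 in female cells. Capillary cells were 1.95-fold higher in the ATG5 KO library (interval 1.70 to 2.25) and HEV cells 3.14-fold (interval 2.45 to 4.04), and neither direction was stable to the clustering: at a finer resolution the log2 ratios were -0.64 and -0.74. BEC6 and BEC10 were each 0.82-fold, and BEC11 was 1.05-fold (interval 0.942 to 1.16).

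Igfbp7 was 0.812-fold in BECs of the ATG5 KO library (interval 0.798 to 0.827) and below 1 in every named BEC class compared, although the direction turned in female BECs (1.02-fold), in female arterial cells (log2 ratio 0.22) and, with other clusterings, in capillary cells (0.37 with IGF genes allowed, 0.29 with doublet calls kept and 0.15 at the finer resolution). The ratio was 0.726 in HEV cells, 0.763 in capillary cells, 0.800 in cycling cells and 0.909 in tip-like cells. The tip-like clusters went opposite ways, 1.09 in BEC1 (interval 1.04 to 1.15) and 0.747 in BEC4 (interval 0.700 to 0.796). Arterial cells differed most, with a ratio of 0.494 (interval 0.427 to 0.570), the class in which Igfbp4 differed most in the other direction. The arterial log2 ratio, -1.02, was -3.01 with at most 10% mitochondrial UMIs and under 1.5-fold with doublet calls kept (-0.53) and with IGF genes allowed in the clustering (-0.49). BEC11 did not differ beyond counting error (ratio 0.998, interval 0.958 to 1.04). In LECs Igfbp7 was 1.3-fold higher (interval 1.27 to 1.33), 1.02-fold with ceiling and medullary cells given equal weight, and 0.932-fold within medullary cells (interval 0.888 to 0.978). The ceiling clusters did not go one way: LEC5 was 0.690-fold (interval 0.614 to 0.774), LEC12 1.22-fold (interval 1.13 to 1.3; 0.852 in female cells) and LEC10 2.13-fold (interval 1.88 to 2.42). In LEC10 the ratio was 1.21 in male cells (18 and 4) and 4.55 in female cells (11 and 15).

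Igfbp5 was called in LECs at 242 and 452 CPM (ratio 1.87, interval 1.70 to 2.05) and in BECs at 58.1 and 258 CPM (ratio 4.43, interval 3.72 to 5.32), but these sums rest on the few cells given above. Within LEC10 the ratio was 0.947 (interval 0.860 to 1.04), with 0.377 in male and 1.31 in female cells. In LEC12 the gene had 91 UMIs in 3 of 68 cells of the WT and 1 UMI in 1 of 24 cells of the ATG5 KO library, near-equal shares of cells (4.41% and 4.17%; ratio of CPM 0.0313, interval 0.00078 to 0.179). Without the richest cell of each library the log2 ratio in BECs was 1.58, against 2.15, and the ratio ran from 0.0261 in female cells to 217 with at most 10% mitochondrial UMIs.

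The libraries also differed in other ways. Immediate early genes (11, such as Fos and Egr1) summed to 15488 and 6388 CPM in LECs and 9493 and 6533 CPM in BECs, none at 0. The classes did not go one way. Medullary LECs were at 3633 and 4604 CPM, HEV cells at 13977 and 13970, capillary cells at 10879 and 10932 and arterial cells at 3581 and 3539 CPM. LEC5 was at 7216 and 3437 CPM, LEC10 at 15163 and 4586, LEC12 at 8832 and 7223, tip-like cells at 4455 and 2905.5 and cycling BECs at 5555 and 2150 CPM. Interferon-response genes (10, such as Isg15 and Cxcl9) summed to 786 and 1672 CPM in LECs, 756 and 2773 CPM in medullary LECs and 1321 and 4357 CPM in BECs, again with none at 0. In BECs the high value came with BEC7, at 13531 and 23676 CPM in 2 and 58 cells, whereas HEV cells were at 1476.5 and 639 CPM, capillary cells at 1355 and 1210 CPM and arterial cells at 892 and 627 CPM. The tip-like clusters went opposite ways, BEC1 at 570 and 1530 CPM and BEC4 at 1938 and 1023 CPM. BEC6 was at 502 and 807 CPM, and BEC10 and BEC11 were lower in the ATG5 KO library. Mitochondrial UMIs were 7.24% and 10.4% in LECs and 10.1% in BECs of each library. Cells of both sexes were present, as read from UMIs of Xist and of Y-linked genes: 421 male and 170 female LECs in the WT library against 89 and 86, and 307 and 50 BECs against 242 and 113. The part of the immediate early and interferon genes in the ratios was not tested; the ratios were recomputed within each sex and with at most 10% mitochondrial UMIs. Igfbp4 in BECs was at 311 and 598 CPM in male cells and at 269 and 512 CPM in female cells, and so was higher in the ATG5 KO library in each.

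Igfbp4 was also a gene of T cells. CD4 T cells were at 867 CPM [811 to 925] in the WT and 859 CPM [820 to 901] in the ATG5 KO library, with the gene in 62.5% of 365 and 60.6% of 673 cells. In B cells it was at 4.0 and 7.53 CPM and in 0.891% and 1.16% of cells, at a similar depth (median 2952 and 3222 UMIs in CD4 T cells), and thinned shares, without the 192 and 287 shallower CD4 T cells, were 69.9% and 65.3% against 1.62% and 1.60%. The level in CD4 T cells was 217-fold (interval 128 to 398) and 114-fold (interval 80.1 to 168) that in B cells. CD8 T cells were at 388 CPM [354 to 423] and 419 CPM [391 to 448]. The CD4 level was 2.24-fold the CD8 level in the WT library (interval 2.0 to 2.5) and 2.05-fold in the ATG5 KO library (interval 1.89 to 2.23).

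The gene was low in T cells with other programmes. Regulatory T cells, marked by Foxp3, were at 94.6 CPM [69.5 to 126] and 82.8 CPM [63.6 to 106], and memory-like CD8 T cells, marked by Ccl5 and Eomes, at 29.985 CPM [16.0 to 51.3] and 54.1 CPM [40.0 to 71.5]. The CD4 level was 9.16-fold the regulatory level in the WT library (interval 6.83 to 12.6) and 10.4-fold in the ATG5 KO library (interval 8.07 to 13.6). The order was CD4, CD8, regulatory, memory-like and B in both libraries, with every ratio between neighbours down to memory-like cells above 1 over its whole interval and no overlap between the intervals of memory-like and B cells.

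**Figure D4:**
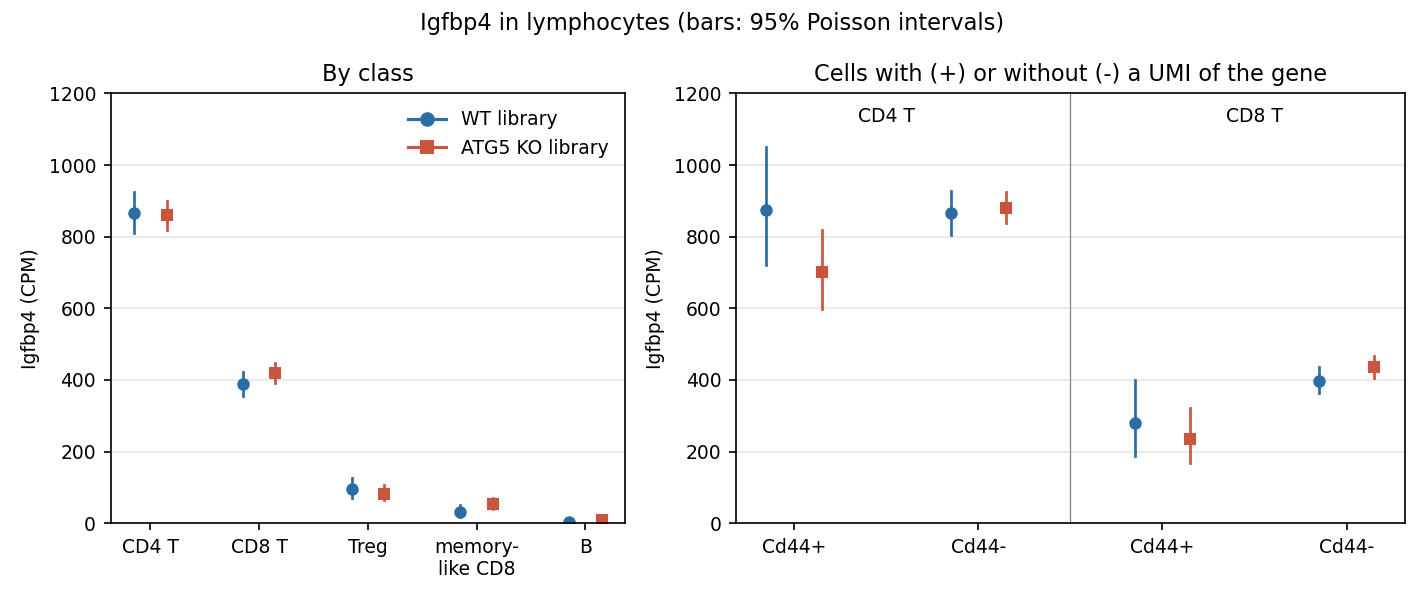
Igfbp4 in CPM in lymphocyte classes (left) and in CD4 and CD8 T cells split by whether the cell had a UMI of Cd44 (right), with circles for the WT and squares for the ATG5 KO library and bars for 95% Poisson intervals. The level falls from CD4 over CD8 to regulatory, memory-like and B cells in both libraries.

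When CD4 T cells were split by Cd44, a marker of activated and memory cells, the WT values were 874 and 865 CPM with and without a UMI, and the ATG5 KO values 701 CPM [597 to 818] and 880 CPM [837 to 924]. CD8 T cells with Cd44 were at 279 CPM [188 to 399] and 236 CPM [168 to 323], and those without at 397 CPM [362 to 435] and 435 CPM [405 to 466]. In CD8 T cells the side with Cd44 was thus the lower in both libraries, while its interval overlapped in the WT library. A cell without a UMI may still express the gene, and cells with a Cd44 UMI were deeper, with medians of 3499 and 3665 UMIs against 2915 and 3186 in CD4 T cells.

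Between genotypes, Igfbp4 in CD4 T cells had a ratio of 0.992 (interval 0.914 to 1.08), and in CD8 T cells of 1.08 (interval 0.966 to 1.21). Of 6878 genes with enough UMIs in CD4 T cells, 9.42% passed 1.5-fold, 5.02% higher and 4.41% lower. Regulatory T cells had a ratio of 0.875 (interval 0.590 to 1.31) and memory-like CD8 T cells of 1.80 (interval 0.963 to 3.62), so neither was clear of counting error; other settings gave 0.452 to 1.29 and 1.22 to 4.48. The 8 naive T cell genes described (Ccr7, Lef1, Tcf7, Il7r, S1pr1, Klf2, Dapl1 and Satb1) and the 5 activation genes with enough UMIs in CD4 T cells were within 1.5-fold. Within cells assigned to 1 sex the CD4 values were higher in the ATG5 KO library, 953 and 1055 CPM in male and 663 and 917 CPM in female cells, whereas cells without a UMI of a sex gene had 823 and 695 CPM.

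The genes around the binding proteins in the IGF pathway were counted as a list of 48, of which 47 had a row. In LECs 30 had enough UMIs; 2 were higher, 6 were lower and 22 were within 1.5-fold, with a median log2 ratio of 0.051 beside 0.035 for all genes. In BECs 30 had enough UMIs; 2 were higher, 3 lower and 25 within 1.5-fold, with a median of 0.079 beside -0.0091. In CD4 T cells 14 had enough UMIs, of which 1, the receptor Igf1r, was lower (46.7 and 30.6 CPM). The shares of all genes past the same threshold are those given above.

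Of the ligands, Igf2 was at 35.3 and 248 CPM in LECs, a ratio of 7.04 (interval 5.93 to 8.39), and medullary cells, at 216 and 494 CPM, held 94 of its 203 UMIs in the WT and 383 of 392 in the ATG5 KO library. Cycling LECs of the WT library had as high a level, 211 CPM with 88 UMIs, and the 8 of the ATG5 KO library had none. In BECs Igf2 was highest in arterial cells, at 732 and 691 CPM against 58.9 and 45.9 CPM over all BECs. Arterial cells held 114 of the 157 WT and 65 of the 118 ATG5 KO UMIs. Cycling BECs held 37 of the former and tip-like cells 41 of the latter. Igf1 was at 190 and 160 CPM in LECs and highest in floor cells, at 486 and 832 CPM, and BECs had only 19 and 13 UMIs of it. As class sums, floor LECs therefore had both Igf1 and Igfbp4, and medullary LECs and arterial BECs both Igf2 and Igfbp4. Whether the same cells held both was not examined.

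The receptors were within 1.5-fold in both kinds of endothelium. Igf1r, the signalling receptor, was at 264 and 241 CPM in LECs and 190 and 169 CPM in BECs. Igf2r, which clears Igf2, was at 45.0 and 35.5 CPM in LECs and 120 and 99.3 CPM in BECs, and the insulin receptor Insr at 28.7 and 39.9 CPM in LECs and 222 and 288 CPM in BECs. Pappa had 4 and 3 UMIs in LECs and 1 in the BECs of each library, so this protease of Igfbp4 was not detectable beyond a few molecules in these endothelial cells. Among the 7 proteases and regulators with enough UMIs in LECs, the urokinase Plau was higher (31.3 and 74.1 CPM), and Adamts1 (948 and 414 CPM), the tissue plasminogen activator Plat (539 and 219 CPM) and Stc1, an inhibitor of Pappa (99.6 and 62.7 CPM), were lower. These are sums over LECs of different makeup in the 2 libraries. Within medullary LECs Adamts1 was at 204 and 178 CPM and Stc1 at 138 and 41.2 CPM. In BECs Plau (57.7 and 92.6 CPM) and Plat (43.1 and 65.4 CPM) were higher and Htra1 (27.4 and 17.1 CPM) was lower. Arterial cells held 43 of the 73 and 33 of the 44 Htra1 UMIs of BECs, at 276 and 351 CPM.

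Downstream of the receptors, Irs2 (28.1 and 9.5 CPM) and the transcription factor Foxo3 (60.8 and 32.3 CPM) were lower in LECs, and none of 7 signalling genes passed in BECs. Cd93, a surface partner of Igfbp7, was at 323 and 466 CPM in LECs and 1685 and 1927 CPM in BECs, within 1.5-fold in each. Of the genes that share the IGF-binding domain without being Igfbp genes, Ccn1 was lower in both, at 2457 and 1004 CPM in LECs and 550 and 306 CPM in BECs, and Htra1 was lower in BECs as given above. All these sums also mix the different cells of the 2 libraries. Within medullary LECs Ccn1 was at 542 and 544 CPM and in arterial BECs at 610 and 648 CPM. It was lower in the ATG5 KO library in HEV, capillary, tip-like and cycling BECs.

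The genes most like each member over 30 sums (15 classes in each of 2 libraries, among 8451 genes) were taken by Pearson's r of log2(CPM + 10). They were Notch4, Pcdh19 and Pcdh1 for Igfbp3 (r of 0.988, 0.987 and 0.986), and Egfl7, Plvap and Col4a1 for Igfbp7 (0.992, 0.992 and 0.991). For Igfbp4 they were Adcy6, Thra and Kif1b (0.876, 0.848 and 0.820), and for Igfbp5 Ephx2, Ccdc3 and Fst (0.938, 0.922 and 0.904). Only classes with at least 20 cells in each library were used, which left out floor LECs and venous BECs. The Igfbp5 values thus leave out its venous cells, and its ceiling sums rest on 26 and 12 cells with a UMI. The members were less like each other: r was 0.762 for Igfbp3 and Igfbp7, 0.597 for Igfbp4 and Igfbp7, 0.372 for Igfbp3 and Igfbp4 and -0.131 for Igfbp3 and Igfbp5. The sums of a library share depth and free RNA, and sub-classes of one parent share a lineage, so these values describe the pattern over classes only.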

How the data were processed

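Each library of the BD Rhapsody whole transcriptome assay was deposited as 1 table of reads and molecules per barcode and gene, unfiltered for cells. Per the file headers, the authors used the Rhapsody WTA pipeline 1.11 with an mm10 reference and kept intronic reads. The counts used are the deposited RSEC-adjusted molecules, that is UMI counts after error correction; the authors' raw molecules were an alternative.

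Cells were called at the steepest bend of the cumulative UMI curve (ranks 500 to 60000), at or above 1281 UMIs in the WT and 1295 UMIs in the ATG5 KO library. Barcodes with under 200 genes or over 25% mitochondrial UMIs, and the 27 and 31 doublets called by Scrublet (expected 6%; 0.697% and 0.745% of cells), were left out. Clustering used scanpy 1.11.5, with Leiden at resolution 1 over 15 neighbours in 30 components of 2000 variable genes, on both libraries together with no integration. Clusters were named from markers, with score thresholds set after the clusters were seen. Intervals are exact Poisson, Clopper-Pearson and conditional binomial (scipy 1.17.1; 95%). A level of 0 allows up to 3 counts. Free RNA, estimated from 9 endothelial genes in B cells, was 2.10% and 3.01%. Gene positions are those of GENCODE M21 and promoters those of RefSeq.

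All 6 members were described; 3 genes most like each were named. The members and lists were chosen with earlier results of these data known. There were 16 alternatives and 1 added after the data were seen (without the cell richest in the member in each library); comparing 2 mixed groups by numbered cluster was also decided then. Proteins are not analysed here, and 1 gene of the naive T cell list is not reported here.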

Additional observations from a re-analysis of the deposited data

Results flagged for a closer look

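The ratio of ATG5 KO to WT went opposite ways in different classes for 2 members, and the difference between the classes was not tested, since there is 1 library per genotype. For Igfbp5 the log2 ratio was 2.15 in BECs and -5.00 in LEC12, where it rests on 91 UMIs in 3 of 68 WT cells and 1 UMI in 1 of 24 ATG5 KO cells. For Igfbp7 it was 1.09 in LEC10 and -1.02 in arterial BECs. The LEC10 value was 0.28 in male and 2.18 in female cells, and the arterial value 0.22 in female cells.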

How the results depend on the processing

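No paired analysis was possible because each genotype has 1 library with no replicate number. Of 593 alternative values for 46 member ratios, 454 moved by less than the counting interval, 125 moved further, some of them past 0 where the ratio was under 1.5-fold, and 14 called ratios turned. Called ratios were under 1.5-fold in size in 29 of these values, some of the turned ones among them, such as Igfbp4 in capillary cells after thinning and in LEC5 of male cells. The count of called members in LECs, 2, was 1 with at most 10% mitochondrial UMIs, 1 with equal weight of sub-classes and 0 at 2-fold. In BECs, 2 became 1 with doublet calls kept, 1 with IGF genes allowed in clustering and 1 at 2-fold. The log2 ratio of Igfbp4 in CD4 T cells, -0.012, was 0.15 in male and 0.47 in female cells.

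Log2 ratios that turned were as follows, and the cause was not tested. Igfbp5 in LECs (0.90) was -0.93 in male cells. Igfbp5 in BECs (2.15) was -0.45 with doublet calls kept, -0.50 with IGF genes allowed in clustering, -5.26 in female cells and -0.90 with equal weight. Igfbp3 in HEV cells (1.65) was -0.64 with doublet calls kept, -0.74 at Leiden resolution 2 and -0.44 in female cells. Igfbp3 in capillary cells (0.97) was -0.64 at resolution 2 and -0.17 with IGF genes allowed. Among female cells Igfbp4 in LEC12 (1.16) was -1.33 (9 and 5 cells), Igfbp7 in arterial cells (-1.02) was 0.22 and Igfbp7 in CD8 T cells (-0.69) was 1.27. Igfbp7 in CD4 T cells (-0.59), at background level, was 0.93 with at most 10% mitochondrial UMIs. Clusters under 20 cells in either library, 8 floor and 8 venous cells of the ATG5 KO library among them, limit what can be compared.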

Other observations

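Igfbp3 was lower in BECs assigned female than in those assigned male in both libraries, at 766 CPM [654 to 893] against 2562 CPM [2487 to 2638] in the WT and 1661 CPM [1548 to 1780] against 2976 CPM [2892 to 3062] in the ATG5 KO library. Tip-like cells, which are richest in Igfbp3, were 62 male and 3 female cells in the WT and 70 male and 16 female cells in the ATG5 KO library, and among them female cells were at 508 and 2019 CPM and male cells at 5802 and 5941 CPM. In HEV cells of the ATG5 KO library the gene was at 1069 CPM in 22 male and 150 CPM in 27 female cells. In those of the WT library the intervals overlapped, at 251 CPM [201 to 310] in 60 male and 204 CPM [93.2 to 387] in 6 female cells. In BEC6 of the ATG5 KO library female cells were at 782 CPM [587 to 1020] and male cells at 719 CPM [513 to 979]. The labels give no sex, and how many mice of each sex were pooled is not given in the sources used here, so sex and mouse cannot be told apart.

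Igfbp4 in medullary LECs was at 4112 CPM [3766 to 4480] in 14 female and 2444 CPM [2267 to 2631] in 34 male cells of the WT library, but at 2430 CPM [2286 to 2581] and 2294 CPM [2116 to 2484] in 50 female and 29 male cells of the ATG5 KO library.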
